A study of Mus musculus with 11 samples.

Results

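The RNA that an anti-hnRNP A1 antibody brought down from nuclear extracts was compared between mouse embryonic fibroblasts (MEFs) that lack HuR (HuR KO) and MEFs that contain it (HuR WT), without division by the nuclear RNA of the same cells. Probes of the array were taken when their detection p-value, which compares a probe with the negative controls of its own array, was at most 0.01 on all 3 HuR KO IP arrays or on all 3 HuR WT IP arrays. The IP arrays are 6 of the 11 arrays of the series, and this rule kept 14304 of the 45281 probes in the table, or 31.6%. It used detection only and not the difference between the cell types.

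HuR and hnRNP A1 are RNA-binding proteins that are mostly nuclear and shuttle to the cytoplasm. hnRNP A1 coats new transcripts and takes part in the choice of splice sites. HuR binds stretches rich in U and AU in introns and untranslated regions of mRNAs and is best known for keeping such mRNAs stable. In an RNA immunoprecipitation (RIP) the antibody collects a protein with the complexes around it, so the RNA recovered can be bound by hnRNP A1 itself or by other proteins of the same particle.

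Both cell types were MEF cultures isolated from mid-gestation HuR KO or HuR WT embryos, and the methods report that HuR KO cells grew more slowly and had to be plated more densely. The labels and methods used here do not give the allele or the number of embryos behind each. The comparison is therefore between a pair of cultures, whose other differences cannot be told apart from the loss of HuR. Each IP array is an independent experiment by the series description. Besides the 6 IP arrays, the series holds 5 arrays of total nuclear RNA, the input of the IPs, with 3 of HuR KO and 2 of HuR WT cells after another HuR WT sample failed quality control. By the methods, IPs with control IgG gave far less RNA, too little for arrays, so the IP values are not set against a control IP probe by probe. The same amount of RNA was amplified from each IP, so that values give a transcript's share of the IP RNA and not its amount, and fewer cells with a transcript cannot be told apart from less of it in each cell. No table used here links a probe to its gene. For this reason the check of HuR mRNA, the markers of fibroblasts and of other cells, and probe sequences are not given.

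All 6 IP arrays detected similar numbers of probes, from 13737 to 14781. The HuR KO IP arrays were dimmer before normalization, with mean intensities of 165 to 206 against 212 to 347 on the HuR WT IP arrays. Among the probes kept, 11573 (80.9%) were detected on all 6 IP arrays. Another 1314 were kept through HuR KO alone and 1417 through HuR WT alone. A probe kept through 1 cell type alone was dim or absent on at least 1 array of the other, so its groups had to differ to some degree, and counts over all probes are given beside those for the 11573.

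The IP RNA of HuR KO cells differed from that of HuR WT cells at 2276 probes, which is 15.9% of those kept (more than 2-fold, with an adjusted p below 0.05 in limma). Among them 1035 (7.24% of the probes kept) rose in the HuR KO IP, with a median log2 fold change of 1.37. A further 1241 (8.68%) fell, with a median log2 fold change of -1.47. Most of the changes were small. A fitted change of no more than 4-fold was found at 844 higher and 923 lower probes, one of 4-fold to 16-fold at 169 and 276, and one over 16-fold at 22 and 42. The median log2 fold change of all probes kept was 0.0042. Quantile normalization gives all arrays the same distribution and by itself pulls this median toward 0, so nothing is read from it.

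**Figure D1:**
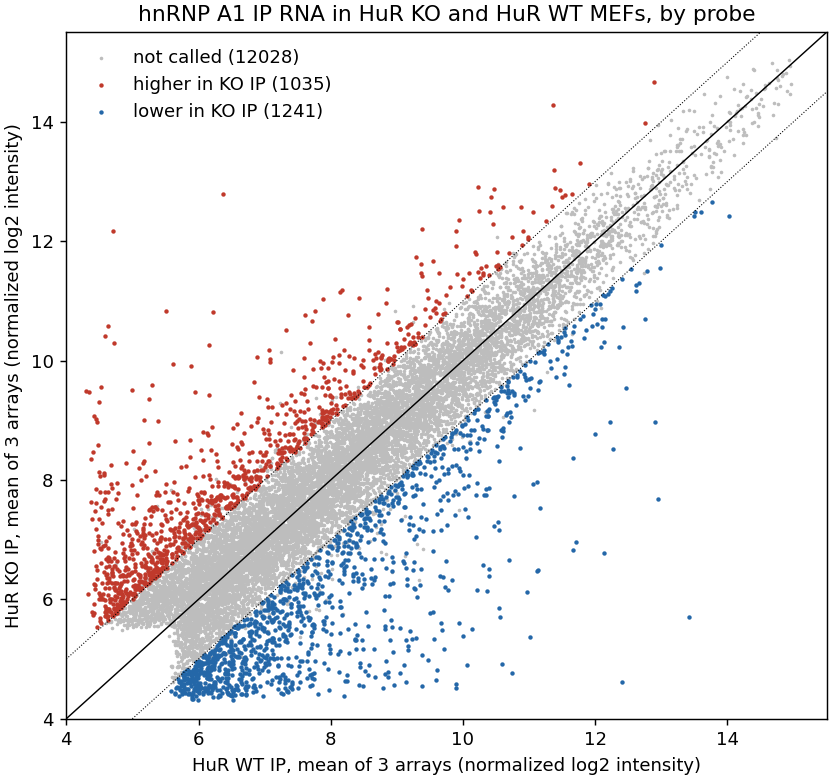
Mean normalized log2 intensity of each of the 14304 probes in the HuR WT IP (x axis, 3 arrays) and the HuR KO IP (y axis, 3 arrays). The solid line marks equal levels and the dotted lines a change of 2-fold; 1035 probes were called higher (red) and 1241 lower (blue) in HuR KO, and values near the lower edges are at background.

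The probes detected on all 6 IP arrays were called about equally often in both directions, toward which quantile normalization by itself pulls them. Of these 11573, 569 were higher and 571 lower in the HuR KO IP, together 9.85%, with median log2 fold changes of 1.29 and -1.34. When the p-values were adjusted over these probes alone, 556 were higher and 556 lower. Changes over 4-fold were found at 68 higher and 97 lower probes of this kind and changes over 16-fold at 3 and 9. The excess of lower calls over all probes kept thus lay among probes that were not above background on every array. Of the probes kept through HuR KO alone 466 were called higher, and of those kept through HuR WT alone 670 were called lower.

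The array values separated well at the probes called, which the call itself largely requires. At 1033 of the 1035 higher probes every HuR KO IP array lay above every HuR WT IP array, and at 1235 of the 1241 lower probes every HuR KO IP array lay below. Such a separation was common in these data, since it was found at 6828 probes or 47.7% of those kept, with HuR KO above at 23.6% and below at 24.2%. Many of these differences were under 2-fold. An adjusted p under 0.05 from limma was reached at 4196 probes without regard to size, 2085 higher and 2111 lower, of which 1920 changed by no more than 2-fold.

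A missed threshold does not show that the IPs were alike at a probe, so the interval of each difference was examined as well. The median standard error of the log2 fold change was 0.22, and the median half-width of its 95% interval was 0.51. At 6946 probes (48.6%) the whole interval lay within a change of 2-fold in either direction, and 6480 of these were detected on all 6 IP arrays. For the remaining 5082 probes (35.5%), which were neither called nor held within 2-fold, these arrays leave the size of the difference unresolved. Of those, 243 had a fitted change over 2-fold, 109 higher and 134 lower, with a median standard error of 0.47.

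By the rule for named probes, the largest differences among called probes whose groups did not overlap were at ILMN_3118071 and ILMN_1214408 for rises and at ILMN_2753809 and ILMN_2704576 for falls. Levels below are normalized log2 intensities on single arrays, in the order of replicates 1, 2 and 3.

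Probe ILMN_3118071 read 11.52, 12.79 and 12.22 on the HuR KO IP arrays and 4.79, 4.57 and 4.75 on those of HuR WT. It was above background on every HuR KO and on no HuR WT IP array, and the deposited intensities were 1992 to 6343 and 2.71 to 9.95. Its level was at least 100.02-fold higher in the HuR KO IP (fitted log2 fold change 7.47, standard error 0.31, adjusted p = 1.95e-05 from limma). Such a bound sets the mean of the bright group against a dim group in which each array is given its own value or its lowest detected signal, whichever is higher. The lowest detected log2 signals of the IP arrays lay between 5.40 and 5.63.

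Probe ILMN_1214408 was detected on all 6 IP arrays. It read 12.22, 13.06 and 13.10 in the HuR KO IP and 6.25, 6.34 and 6.52 in the HuR WT IP. HuR KO replicate 1 was the lowest of the HuR KO arrays at both of the probes that rose, but stood far above every HuR WT array. On the log2 scale the difference was 6.43 ± 0.26 (standard error), or 85.9-fold, and limma gave an adjusted p of 1.86e-05. It was the largest rise of a probe detected on all 6 IP arrays.

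Probe ILMN_2753809 read 6.04, 5.42 and 5.66 in the HuR KO IP and 13.50, 13.41 and 13.35 in the HuR WT IP. Replicates 1 and 3 of HuR KO were above background, with detection p-values of 0.0021 and 0.0032, while replicate 2 missed the limit at 0.013. The fitted fall was 210.1-fold, or -7.71 ± 0.20 (standard error) on the log2 scale with an adjusted p of 4.76e-06 in limma, and its lower side lies near background.

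Probe ILMN_2704576 read 4.60, 4.78 and 4.47 in the HuR KO IP, with no array above background, and 12.25, 12.51 and 12.46 in the HuR WT IP. The deposited intensity was 4278 to 8644 on the HuR WT IP arrays and between -0.83 and 6.06 on those of HuR KO. The probe was at least 126-fold lower in the HuR KO IP (fitted log2 fold change -7.79, standard error 0.17, adjusted p = 2.67e-06 from limma). At both of the probes that fell, the HuR WT arrays lay within 0.26 of each other on the log2 scale.

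**Figure D2:**
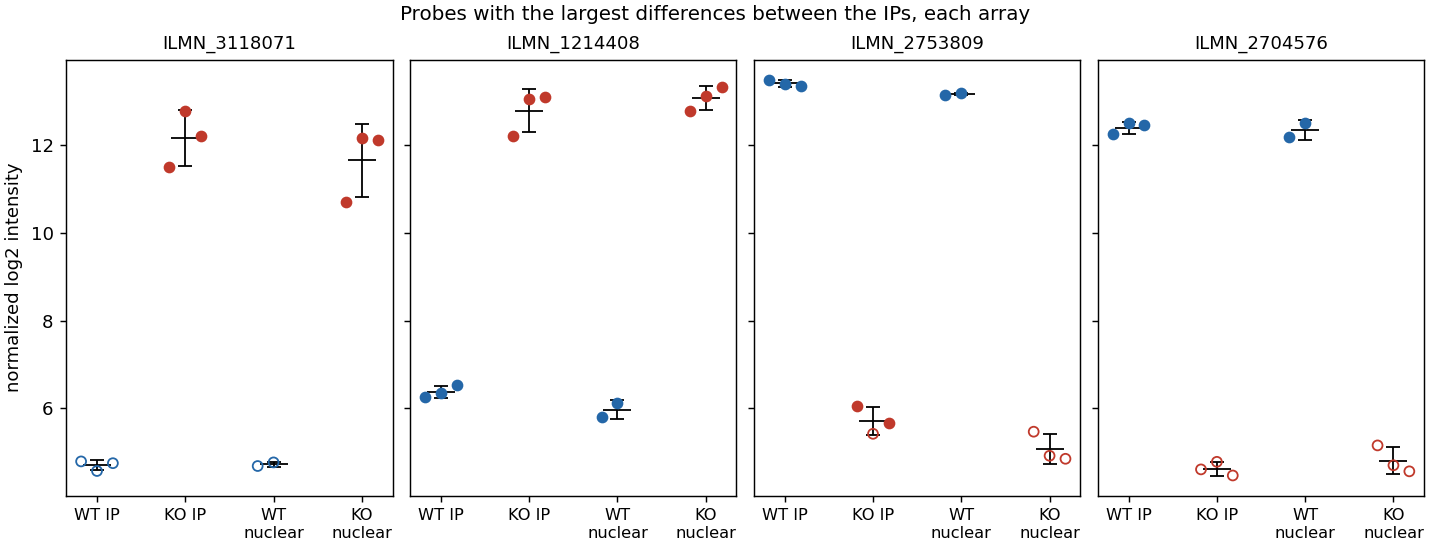
Normalized log2 intensity of the named probes on each IP and nuclear RNA array, by group (x axis). Filled points were above background and open ones were not, bars show the mean and SD (n = 3, or 2 for HuR WT nuclear RNA); at each probe nuclear RNA differed in the direction of the IPs.

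At these probes nuclear RNA differed in the direction of the IPs. ILMN_1214408 was above background on all 5 nuclear RNA arrays and on all 6 IP arrays. Its log2 fold change in nuclear RNA was 7.11, and the IP change minus the nuclear RNA change was -0.69 (95% interval -1.52 to 0.14, adjusted p = 0.51 from limma), an interval that reaches beyond 2-fold. At the other probes no nuclear RNA array of the dimmer cell type was above background, so nuclear RNA gives a bound. In HuR KO nuclear RNA, ILMN_3118071 was at least 87.9-fold higher, ILMN_2753809 at least 212-fold lower and ILMN_2704576 at least 120.4-fold lower. With a level at background in these groups, the difference between the IP change and the nuclear RNA change has no measured size there.

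Below the named probes the sizes fell off quickly. The third largest rise was 39.97-fold and the third largest fall 50.03-fold, and the tenth in rank were 19.6-fold and 28.5-fold. Counting a probe with no array of the dimmer group above background by its bound, 5 such probes rose and 8 fell over 16-fold. Where the dimmer group was measured on some array, 9 probes rose and 25 fell by that much.

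Probes above background on all IP arrays of 1 cell type and on none of the other made up many of the calls. In the whole table, every HuR KO IP array but no HuR WT IP array detected 547 probes, and 474 showed the reverse. Limma called 306 of the 547 higher (55.9%) and 403 of the 474 lower (85.0%). A difference was built into these sets by the detection rule. The bounds were mostly modest, with a median of 1.42-fold for the 547 probes and 1.69-fold for the 474. A bound over 2-fold was reached by 137 and 184 of them, one over 4-fold by 42 and 55, and one over 10-fold by 11 and 18. Of the probes seen on 1 and 2 HuR WT arrays beside all 3 of HuR KO, 25.5% and 16.9% were called, and for the reverse 41.2% and 19.6%. Detection on more arrays of the dimmer group itself makes the difference smaller, so nothing is read from the order of these shares.

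**Figure D3:**
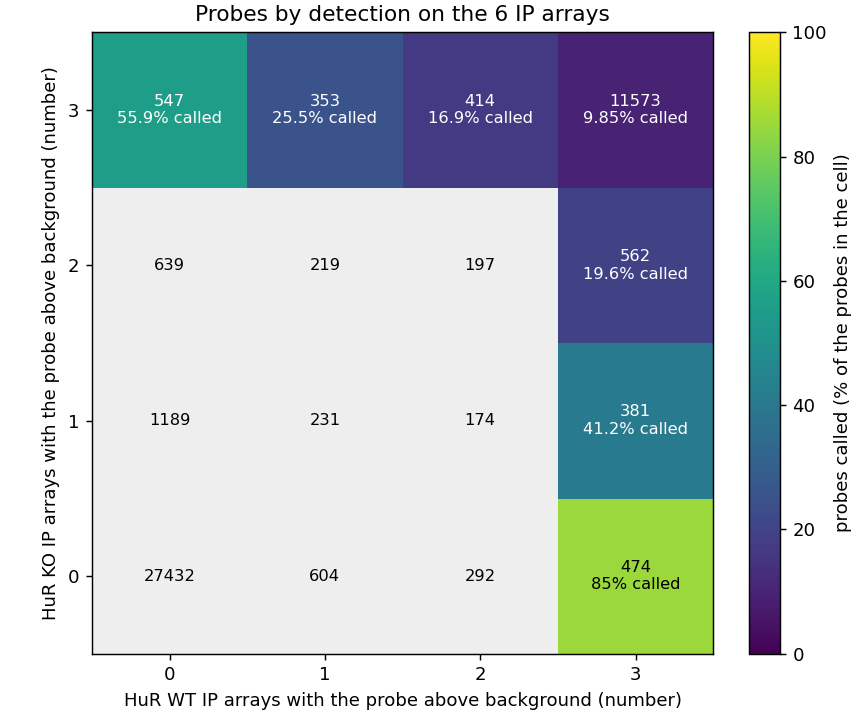
Number of probes in the table by how many HuR WT IP arrays (x axis) and HuR KO IP arrays (y axis) had them above background, with the percent called between the IPs as colour and text. Grey cells are outside the rule; 11573 probes were detected on all 6 arrays and 9.85% of them were called.

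In nuclear RNA, 119 of the 547 probes and 218 of the 474 showed that on and off pattern too. Another 88 and 103 were above background on all 5 nuclear RNA arrays, and 40 of the 88 and 79 of the 103 were called between the IPs, beside the 55.9% and 85.0% of their whole sets and 15.9% of all probes kept. These calls are partly built in by the detection rule. No nuclear RNA array detected 113 of the 547 probes, against 6 of the 474. The on and off pattern needed 3 HuR KO nuclear RNA arrays above background for the 547 but 2 of HuR WT for the 474. Shares of all probes kept with these nuclear RNA patterns are not given here, so nothing is read from the difference between the sets.

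Nuclear RNA of the same cells gives the setting in which the IP differences stood. Nuclear RNA and IP come from the same extracts, so that the comparisons share their cultures though no arrays. Over the probes kept here, nuclear RNA differed between the cell types at 1684 (11.8%), with 812 (5.68%) up and 872 (6.1%) down in HuR KO by the thresholds used for the IPs. Of the 1035 probes higher in the HuR KO IP, 517 were called higher in nuclear RNA as well, 1 was called lower and 517 were not called. Of the 1241 lower probes, 662 were called lower, none higher and 579 not.

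The larger a change in the IP was, the more often nuclear RNA was called with it. At a fitted IP change of 2-fold to 4-fold, the nuclear RNA change carried that sign and was called at 40.8% of rises and 41.4% of falls. At 4-fold to 16-fold these shares were 89.9% and 86.2%, and over 16-fold 21 of 22 and 42 of 42 probes. The median log2 fold change of nuclear RNA in these 3 ranges was 0.92, 2.24 and 4.32 at the higher probes, beside 1.27, 2.40 and 4.63 in the IP. At the lower probes it was -0.95, -2.43 and -4.56, beside -1.31, -2.52 and -4.62. The probes were ranked on the IP values, which by itself makes the IP medians the larger ones.

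Where nuclear RNA was not called, it was still shifted in the direction of the IP. The 517 higher probes had a median log2 fold change of 0.62 in nuclear RNA and 1.19 in the IP, and the 579 lower probes had -0.60 and -1.26. The 95% interval of the nuclear RNA change lay within 2-fold at 158 higher and 209 lower probes. They had been called for a change over 2-fold in the IP. The difference between the IP and nuclear RNA changes, tested as described next, was called at 9 of the 158 and 62 of the 209. Its share over all probes kept was 0.741%. Choosing probes for a large IP change and a small nuclear RNA change by itself makes that difference larger. Detection on all 6 IP arrays was found for 66 of the 158 and 76 of the 209.

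The difference between the IP change and the nuclear RNA change was tested directly as an interaction in 1 model of the 4 groups. It was called at 106 of the 14304 probes, or 0.741% (adjusted p under 0.05 from limma). The IP change exceeded the nuclear RNA change at 15 probes (0.105%) and fell below it at 91 (0.636%). Probes were kept on IP detection only, so at those kept through 1 cell type alone an IP difference was partly built in. Nuclear RNA need not share it. No HuR WT IP array detected 11 of the 15 probes, and no HuR KO IP array detected 81 of the 91. The model of the 4 groups takes no account of the shared extracts. With the extract as a random block (consensus correlation 0.36), an alternative added after the data were seen, the counts were 125 and 237, and the shares that follow are those of the model without it. Of the 2276 probes called between the IPs, 94 were called here, which is 4.13%. For 465 of them (20.4%) the interval of the difference lay within 2-fold, beside 37.1% of all probes kept. For the other 1717 (75.4%) this model did not resolve the difference. The 2276 probes were chosen on their IP change, which by itself moves the difference away from 0. The median standard error of the difference was 0.34.

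**Figure D4:**
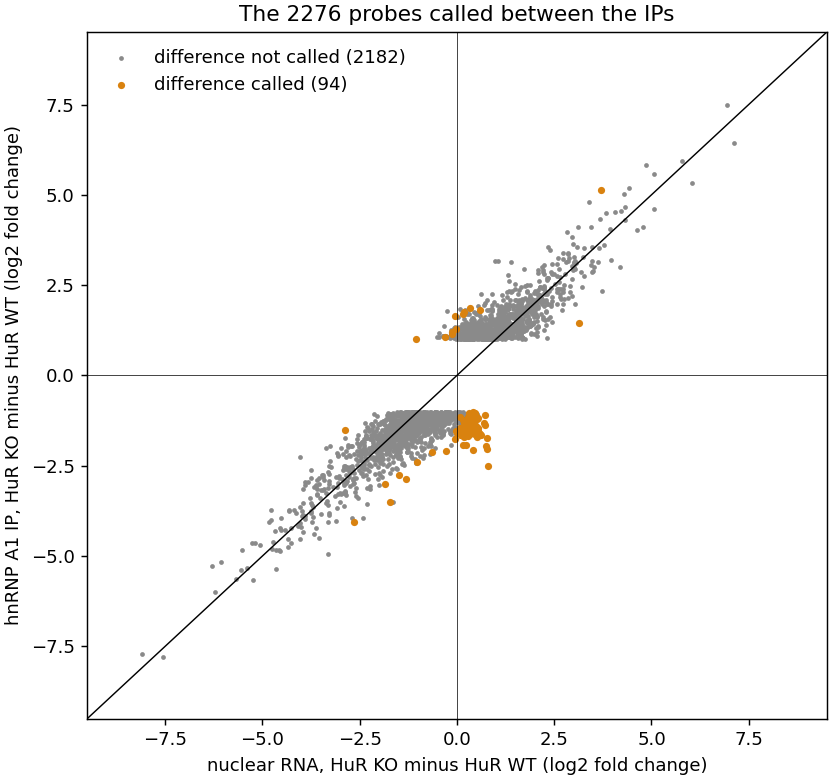
Log2 fold change of HuR KO over HuR WT in nuclear RNA (x axis) and in the hnRNP A1 IP (y axis) for the 2276 probes called between the IPs. The line marks equal change; orange marks the 94 probes at which the difference of the changes was called, most of them in a group with a lower IP level and little change in nuclear RNA.

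The 91 probes on the lower side were mostly dim. At 81 of them, against 3.31% of the probes kept, the HuR KO IP arrays were all at background and the 3 HuR WT IP arrays all above it. At these 81 the median log2 level was 6.06 in the HuR WT IP and 4.59 in the HuR KO IP, where the lowest detected signals lay at 5.40 or above. Their median log2 fold change was -1.44 in the IP and 0.31 in nuclear RNA, which was above 0 at 71 of them. These probes were chosen for an IP change below the nuclear RNA change and were kept through HuR WT alone. That choice by itself sets the medians apart, so nothing is read from their signs. All 3 HuR KO nuclear RNA arrays detected 52 of the 81 probes, against 118 of the 474 kept with no HuR KO IP array above background. All 5 nuclear RNA arrays detected 40 of the 81, against 103 of the 474. Choosing probes for an IP change below the nuclear RNA change by itself favours those detected in HuR KO nuclear RNA. The HuR WT IP was at least 2-fold above the HuR KO IP at 14 of the 81 by the bound, whose median was 1.55-fold and highest value 10.5-fold.

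Of the 106 probes, 5 were detected on all 6 IP arrays, 1 on the higher side and 4 on the lower. The first had a log2 fold change of 1.08 in the IP and -0.29 in nuclear RNA (adjusted p = 0.031 from limma for the difference). Among the other 4, the largest difference was -1.90, from an IP change of -1.50 and a nuclear RNA change of 0.40 (adjusted p = 0.0076 from limma). When tested over the 11573 probes detected on all 6 IP arrays alone, limma called none in either direction, with 484 and 633 probes at an unadjusted p under 0.05. Without HuR WT nuclear RNA replicate 1 the counts of 15 and 91 were 0 and 17 (393 and 558 unadjusted), and without HuR KO IP replicate 1 they were 24 and 94.

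The only probe with opposite calls in IP and nuclear RNA was found after its values were seen. In the IP it read 6.53, 6.11 and 6.41 in HuR KO and 5.33, 5.39 and 5.32 in HuR WT, where no array was above background. In nuclear RNA it read 4.99, 5.15 and 5.32 in HuR KO, again with none above background, and 6.75 and 5.64 in HuR WT. The log2 fold changes were 1.00 (adjusted p = 0.0057) and -1.04 (adjusted p = 0.027), and the difference of 2.04 was called at an adjusted p of 0.039, all from limma. The HuR WT nuclear RNA arrays lay over 1 apart on the log2 scale at this probe, and both dim groups were at background.

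Of the 1684 probes called in nuclear RNA, 1179 were called between the IPs in the same direction, 1 in the opposite direction and 504 not. At the 504 the median absolute log2 fold change in nuclear RNA was 1.21, and the median IP change in that direction was 0.74. These probes were chosen on nuclear RNA values, which by itself makes the nuclear RNA median the larger one, and a missed threshold in the IP does not show that the IP was unchanged.

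Replicates were not equally close. The SD of log2 values within a group had a median of 0.29 in the HuR KO IP and 0.18 in the HuR WT IP, and it was larger in HuR KO at 9959 probes (69.6%). Without HuR KO IP replicate 1 the median in HuR KO was 0.12. That array correlated with the other HuR KO IP arrays at 0.918 and 0.925 across probes, whereas those correlated with each other at 0.989. The HuR WT IP arrays correlated at 0.973 to 0.992, and arrays of different cell types at 0.850 to 0.883.

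HuR KO IP replicate 1 was over 2-fold above both other HuR KO IP arrays at 943 probes and over 2-fold below both at 787, together 12.1% of the probes kept. The next array by this measure was HuR WT IP replicate 3, with 279 probes (1.95%), and the other 4 had at most 38. Nuclear RNA of HuR KO replicate 1 stood on the same side of both other HuR KO nuclear RNA arrays at 796 of the 943 and at 746 of the 787. By over 2-fold, the criterion used for the IP, it did so at 411 and 333 of them. The share of all probes kept at which that nuclear RNA array stood apart is not given here, so nothing is read from these counts. Among the called probes, replicate 1 was the HuR KO IP array nearest to the HuR WT mean at 507 of the higher ones, against 274 for replicate 2 and 252 for replicate 3. At the called lower probes it was nearest at 549, against 367 and 325.

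Of the 943 probes 18.2% were called (47 higher and 125 lower) and of the 787 16.6% (88 and 43), beside 15.9% of all probes kept. Together they made up 195 of the 243 probes that passed 2-fold but missed the adjusted p. Without HuR KO IP replicate 1, 1234 probes were higher and 1470 lower. Of the 2276 probes called with all arrays, 2011 were called without it and none turned direction. Leaving out any other IP array gave 805 to 978 higher and 980 to 1132 lower probes, and the fewest were left without HuR WT IP replicate 2.

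**Figure D5:**
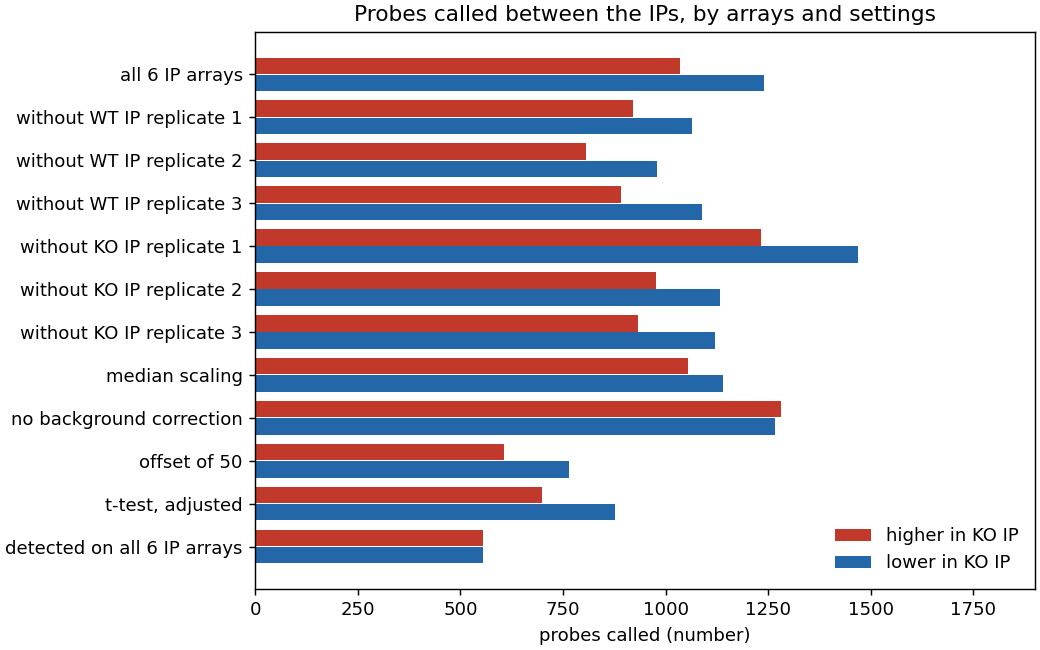
Probes called higher (red) and lower (blue) in the HuR KO IP (x axis, number of probes) with all 6 IP arrays, without each array in turn and under other settings (y axis). The counts range from 805 to 1234 and from 980 to 1470 when an array is left out, and an offset of 50 or detection on all 6 IP arrays gives the lowest ones.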

How the data were processed

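By the methods, RNA of anti-hnRNP A1 IPs and of nuclear extracts was amplified, biotin-labelled and hybridised to Illumina MouseWG-6 v2 BeadChips. The authors deposited an intensity for each probe and array, not normalized between arrays, with 31.6% to 36.5% of an array's values below 0, as after background subtraction. What software did so was not given in the sources used here. They also deposited a detection p-value; column 17 repeats the name of HuR KO nuclear RNA replicate 1 and was taken as replicate 3 from its place beside that signal, with which it had a rank correlation of -0.988 over all probes.

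Here background was corrected with limma 3.58.1 in R 4.3.3 (normal-exponential model from the detection p-values, offset 16) applied to the deposited intensities. All 11 arrays were then quantile normalized together and put on the log2 scale. The methods name these steps without an offset. The 6 IP arrays were fitted alone (lmFit, eBayes, two-sided, Benjamini-Hochberg over 14304 probes). Nuclear RNA changes and the interaction came from 1 model of the 4 group means over 11 arrays. The scripts were tested on simulated data. Fold changes understate changes near background. The number of arrays limits the precision, and p-values measure the spread between these experiments on 1 pair of cultures.

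Alternatives were other scalings, offsets, detection filters, the methods' t-test, array weights, a replicate block and each array left out. Named probes were the 2 largest rises and 2 largest falls among called probes with groups that do not overlap, a bound standing for the fold where the dim group was undetected. The gene lists, gene names and marker checks of the design were left out, because 0 probe identifiers are paired with a gene in the files used here. The probe set and the tests were chosen with earlier results of these data known.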

Additional observations from a re-analysis of the deposited data

Results flagged for a closer look

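The change from HuR WT to HuR KO differed between the hnRNP A1 IP and nuclear RNA, by the test of the difference itself, at 106 probes (adjusted p under 0.05 from limma): 15 with the IP change above the nuclear RNA change, with a median difference of 1.38 on the log2 scale, and 91 with it below, with a median of -1.71. At least 1 of the 4 groups had no array above background at 13 of the 15 and 83 of the 91, against 9.91% of the probes kept. The part of low signal in these differences, and that of a detection rule based on IP arrays alone, was not tested. Groups of 3 arrays were too small for a test of single outlying arrays.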

How the results depend on the processing

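Over the alternatives run and the left-out IP arrays, the 4 named probes kept direction and call in all 73 comparisons, with adjusted p-values of at most 0.0042. They were chosen for the largest differences in these same data, which by itself favours this. Among them, only ILMN_1214408 was tested over the probes detected on all 6 IP arrays. None of the 2276 probes called between the IPs turned direction where it was tested. The counts of 1035 higher and 1241 lower probes were 606 and 764 with an offset of 50, 556 and 556 over the probes detected on all 6 IP arrays, where fewer probes were tested, and 2085 and 2111 with no fold threshold, and within 1.5 times otherwise (699 and 878 with the methods' t-test after Benjamini-Hochberg, 1001 and 1184 unadjusted). They ranged from 805 to 1234 and from 980 to 1470 with an array left out. The share of higher calls was 45.5%, and 48.1% with median scaling and 50.3% with no background correction. Changes over 4-fold depended most on the background: 191 higher and 318 lower probes became 94 and 156 with an offset of 50 and 420 and 617 with no background correction.

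The interaction counts of 15 above and 91 below were 1 and 19 with median scaling, 3 and 26 with an offset of 50, 0 and 0 over the probes detected on all 6 IP arrays (484 and 633 at an unadjusted p under 0.05 in limma), 295 and 400 with array weights, and 0 to 24 and 17 to 94 with an array left out; for these the cause was not tested. Among left-out arrays, HuR WT nuclear RNA replicate 1 gave 0 and 17 (393 and 558 unadjusted), the HuR WT IP arrays gave 8 and 62, 3 and 35, and 4 and 46 in the order of their numbers, counts were 3 and 52 without HuR KO nuclear RNA replicate 2 and 4 and 38 without replicate 3, and 24 and 94, 5 and 52, and 3 and 46 without HuR KO IP replicates 1, 2 and 3 in turn. Added after the data were seen, leaving out both HuR KO arrays numbered 1 gave 71 and 138, and the extract as a random block gave 125 and 237.

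Same-numbered HuR WT and HuR KO IP arrays deviated from their group means with correlations of 0.30, -0.10 and 0.19 across probes, and HuR WT IP replicate 2 correlated best with HuR KO IP replicate 1, so the numbers were not taken to pair the arrays. Blocking on that number gave 1092 rises and 1313 falls between the IPs, and 5 and 61 in the interaction. Depth is given only as signal over background, which limits statements on the 1314 probes kept through HuR KO alone and the 1417 kept through HuR WT alone.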

Other observations

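Of the 45281 probes, 27432 were above background on none of the 6 IP arrays. Outside the rule, detection on a few arrays was more frequent in the HuR KO IP. There, 639 probes were detected on 2 HuR KO IP arrays and no HuR WT IP array and 1189 on 1 and none, against 292 and 604 probes for the reverse. These probes were tested between the cell types only in the alternatives with a wider or no detection filter. The HuR KO IP arrays detected 14609 to 14649 probes each, and those of HuR WT 14781, 13737 and 14013 in the order of their numbers. The part of array sensitivity in these counts was not tested.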
